A study of Mus musculus with 8 samples.

Results

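The genes described here are imprinted genes of the mouse, chosen by symbol: Dlk1, Meg3, Peg10, Sgce, Ndn, Grb10, Plagl1, Mest, Peg3 and Nnat. Of these 10 symbols, 7 had a row among the 12211 rows of the deposited count table, and all 7 passed the filter on low counts. Meg3, Peg3 and Nnat were not analysed here. The study sequenced total RNA of embryonic fibroblasts of the mouse, a culture of connective tissue cells, in 4 libraries labelled PUS10KO (genotype PUS10 KO) and 4 control libraries (genotype WT), numbered 1 to 4 in each genotype. Cells of both genotypes were grown in the same serum-containing medium. The sources used here do not give the strain, the sex, the way the gene was disrupted or whether libraries came from separate cultures or animals. The p-values therefore reflect no more than the spread among these libraries, which may be technical. PUS10 converts uridine in RNA to pseudouridine, and the series title ties it to tRNA fragments and retrotransposons.

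Imprinted genes are transcribed mainly from the copy inherited from the father or mainly from the copy inherited from the mother, according to DNA methylation set in the germ line. Many lie in clusters under a shared imprinting control region, and many act on growth before birth. Several of them are high in embryonic tissues and decline after birth, and embryonic fibroblasts are a common model for them. The counts do not separate the parental copies, so imprinting itself was not measured.

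The totals ran from 17561114 counts in PUS10KO 4 to 24563499 in PUS10KO 2. Pus10, the targeted gene, averaged 13.8 ± 1.60 CPM in PUS10KO and 46.1 ± 6.46 CPM in control (SD, n = 4 each), a log2 fold change of -1.74 (adjusted p = 0.000189, edgeR). CPM stands here for the read count scaled to library size with TMM factors. All 10 fibroblast markers examined had a row, with a summed level of 11190 to 17330 CPM of the unscaled library in PUS10KO and 15960 to 20550 CPM in control. Of the 10, Col1a2, Vim, Pdgfrb and Thy1 fell and 0 rose, where 7.11% of all genes tested fell and 5.90% rose. Thy1 had 2 counts over the PUS10KO libraries against 1726 over the control libraries. Pdgfra and S100a4 did not pass the test and had more counts in PUS10KO, 8791 against 3962 and 67877 against 51526. None of 6 epithelial markers had a row. The 2 endothelial markers with a row summed to 1.22 to 3.38 CPM in PUS10KO and 2.33 to 4.82 CPM in control, and the 2 leukocyte markers to 2.28 to 5.45 CPM and 2.71 to 5.86 CPM in the same order. Of 4 neural markers Nes and Tubb3 had a row and summed to 59.6 to 91.6 CPM in PUS10KO and 126 to 202 CPM in control, and Nes fell. Of 4 adipocyte markers Fabp4 and Pparg had a row and summed to 17.3 to 23.5 CPM in PUS10KO and 15.4 to 24.3 CPM in control. The skeletal muscle marker Des had 91 counts in PUS10KO against 101 in control, and Nanog, a marker of pluripotent cells, had 39 counts in PUS10KO against 45 in control. The part of these marker levels in the results was not tested. The Y-linked genes Uty, Kdm5d and Eif2s3y each had at least 722 counts in every PUS10KO library and at most 2 in any control library. Sex chromosome content and genotype coincided in all 8 libraries and cannot be told apart. In bulk RNA, fewer cells that express a gene and less RNA per cell cannot be told apart either.

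The promoters of the members that the results turn on are shown where the RefSeq table (build GRCm38.p6) holds them, from 250 bases before to 50 bases after the annotated start, in the direction of transcription. Capitals mark TGCCGC or its reverse complement GCGGCA, the letters to which the imprint-keeping protein ZFP57 binds when they are methylated. That motif was searched on both strands and stood in 11.6% of the 32817 promoter windows of this length. Mest has annotated starts 4544 bases apart, and both windows are given. The RefSeq starts of Ndn and Mest differ from the ends of the GENCODE gene spans given with their values.
Dlk1, chr12:109452573-109452872, plus strand: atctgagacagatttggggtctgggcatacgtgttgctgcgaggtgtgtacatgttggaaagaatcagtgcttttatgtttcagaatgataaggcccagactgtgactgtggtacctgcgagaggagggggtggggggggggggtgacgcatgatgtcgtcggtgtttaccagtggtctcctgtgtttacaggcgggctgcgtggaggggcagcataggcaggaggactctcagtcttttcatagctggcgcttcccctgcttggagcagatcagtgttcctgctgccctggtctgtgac
Ndn, chr7:62348027-62348326, plus strand: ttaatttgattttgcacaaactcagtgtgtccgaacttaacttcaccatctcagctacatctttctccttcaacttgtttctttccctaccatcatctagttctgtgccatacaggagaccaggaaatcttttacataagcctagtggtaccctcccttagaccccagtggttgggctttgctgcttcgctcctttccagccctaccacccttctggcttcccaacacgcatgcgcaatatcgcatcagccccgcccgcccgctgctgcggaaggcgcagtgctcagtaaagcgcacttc
Mest, upstream start, chr6:30733256-30733555, plus strand: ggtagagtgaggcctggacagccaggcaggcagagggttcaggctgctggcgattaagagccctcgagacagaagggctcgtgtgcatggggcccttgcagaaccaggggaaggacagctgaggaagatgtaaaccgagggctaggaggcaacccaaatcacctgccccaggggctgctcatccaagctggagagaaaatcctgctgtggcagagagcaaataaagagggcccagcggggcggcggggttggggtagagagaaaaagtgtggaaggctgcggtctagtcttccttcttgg
Mest, downstream start, chr6:30737800-30738099, plus strand: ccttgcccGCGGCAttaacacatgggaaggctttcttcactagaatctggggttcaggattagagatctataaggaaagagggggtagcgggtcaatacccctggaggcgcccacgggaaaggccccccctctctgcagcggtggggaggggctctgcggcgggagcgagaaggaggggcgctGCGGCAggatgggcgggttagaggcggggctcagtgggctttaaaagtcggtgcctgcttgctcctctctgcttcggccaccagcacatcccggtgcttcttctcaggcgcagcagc
The Dlk1 window held 9 CG pairs, the Ndn window 11, and the Mest windows 8 at the upstream start and 17 at the downstream start, against a median of 7.0 over all windows. The motif was found at the downstream start of Mest, at 2 places, and not in the Dlk1 and Ndn windows. Over the 5 members with a window in the table, 4 of 8 windows held the motif, in Grb10, Plagl1 and Mest, and the windows of the downstream Mest starts overlap. The Grb10 window with the motif held 45 CG pairs and the Plagl1 window 26. The motif itself holds a CG pair, and the share of 11.6% over all windows was not matched for CG content. A match is a description of the letters and no evidence of binding.

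Dlk1 and Peg10 rose and Ndn fell in PUS10KO, while Mest, Sgce, Grb10 and Plagl1 did not pass the test. Thus 3 of 7 members passed edgeR's quasi-likelihood test at an adjusted p under 0.05, where 13.0% of the 11909 genes tested passed, 5.90% rising and 7.11% falling. The 4 PUS10KO and the 4 control values did not overlap for the same 3 members, and for 20.3% of all genes tested, 9.70% higher and 10.6% lower. DESeq2 and limma voom called the same 3 members, where they called 19.4% of all genes (9.09% rising, 10.3% falling) and 12.7% (5.87% rising, 6.84% falling). The median log2 fold change was 0.16 over the 7 members and 0.01 over all genes tested. With the library number as a block in the model, which removes differences between numbers from the error, Mest also rose and Plagl1 also fell. Then 5 of 7 members passed, where 39.0% of all genes tested passed, 19.1% rising and 19.9% falling. The members and the gene lists below were chosen with earlier results of these data known. Their shares beside those of all genes are thus a description and no test of enrichment.

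**Figure D1:**
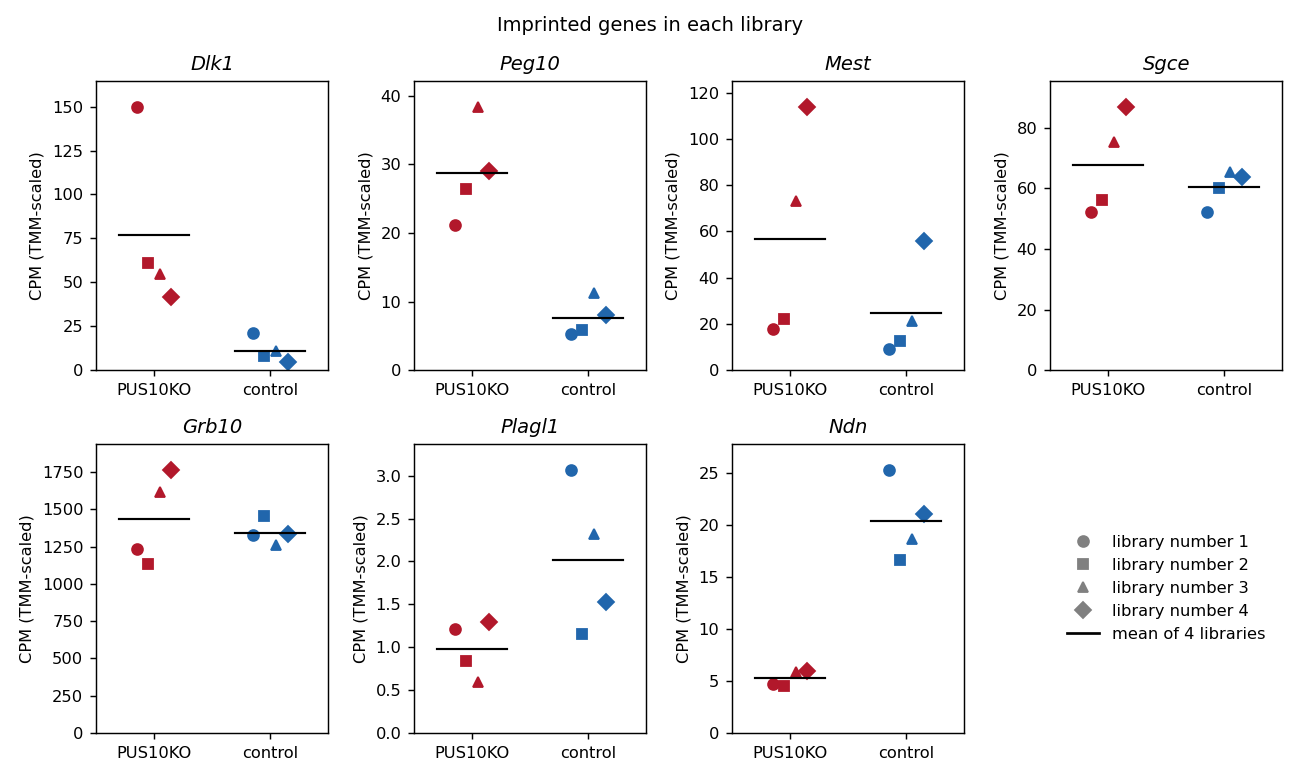
Level of each of the 7 imprinted genes in every library, as TMM-scaled CPM on linear axes from 0, with PUS10KO in red and control in blue; marker shapes give the library number and lines the mean of 4 libraries. Dlk1 and Peg10 were higher in all 4 PUS10KO libraries than in any control library, Ndn was lower in all 4, and the other 4 genes overlapped.

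Dlk1 encodes a membrane protein related to Notch ligands that restrains adipocyte differentiation and is expressed mainly from the paternal copy. The gene (ENSMUSG00000040856.17) spans chromosome 12, 109452823 to 109463336, plus strand, GRCm38. It had 150, 61.1, 54.8 and 41.5 CPM in PUS10KO libraries 1 to 4, against 21.1, 7.99, 10.7 and 4.69 CPM in control libraries 1 to 4. Library 1 was the highest and library 4 the lowest in both genotypes, and the lowest PUS10KO value lay above the highest control value. The means were 76.7 ± 49.3 CPM in PUS10KO and 11.1 ± 7.08 CPM in control (SD, n = 4 each), a log2 fold change of 2.79 (SE 0.55, adjusted p = 0.0106, by the edgeR test). The call was kept in each of 8 fits without 1 library, with log2 fold changes of 2.24 to 3.31. Between libraries of the same number the log2 differences were 2.82, 2.92, 2.34 and 3.12.

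Dlk1 rose on a chromosome where 11.9% of the tested genes had a log2 fold change above 0. On chromosome 12 the median log2 fold change was -0.60, and 12 of 405 tested genes rose while 167 fell. Within 1 Mb of Dlk1, 10 genes were tested, of which 1 rose, 4 fell and 5 did not pass. The gene that rose was Dio3, at the far end of the same imprinted domain, 826 kb from Dlk1 between starts. Dio3 encodes the deiodinase that inactivates thyroid hormone. It had 16.1, 9.55, 25.2 and 33.7 CPM in PUS10KO libraries 1 to 4, against 0.24, 0.27, 0.62 and 0.43 CPM in control libraries 1 to 4. Control libraries 1 to 4 held 5, 5, 12 and 9 counts of it. The log2 fold change came to 5.73 (SE 0.50, adjusted p = 0.000214, edgeR), or 5.41 to 6.03 with 1 library left out. Unlike Dlk1, Dio3 was higher in libraries 3 and 4 than in libraries 1 and 2 of both genotypes. Wars, a tryptophanyl-tRNA synthetase gene 559 kb upstream of Dlk1, showed a log2 fold change of -0.90 (adjusted p = 0.00356, edgeR).

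Peg10, a gene derived from a retrotransposon that is needed for placental development, rose, while Sgce, which starts next to it on the opposite strand, did not pass the test. Both are expressed mainly from the paternal copy. Peg10 (ENSMUSG00000092035.8) spans chromosome 6, 4747306 to 4760517, plus strand, and Sgce (ENSMUSG00000004631.15), the gene of epsilon-sarcoglycan, spans 4674350 to 4747207, minus strand, so their annotated starts lie 99 bases apart. Peg10 had 21.2, 26.4, 38.3 and 29.0 CPM in PUS10KO libraries 1 to 4, against 5.30, 5.86, 11.2 and 8.04 CPM in control libraries 1 to 4. The groups did not overlap, and libraries 3 and 4 were above libraries 1 and 2 in both genotypes. The means were 28.7 ± 7.17 CPM in PUS10KO and 7.61 ± 2.69 CPM in control (SD, n = 4 each), a log2 fold change of 1.92 (SE 0.28, adjusted p = 0.00274, edgeR). The call was kept in each of 8 fits without 1 library (1.75 to 2.17).

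Sgce had 52.3, 56.3, 75.2 and 86.7 CPM in PUS10KO libraries 1 to 4, against 52.2, 60.0, 65.5 and 63.8 CPM in control libraries 1 to 4. The groups overlapped, with means of 67.6 ± 16.2 CPM in PUS10KO and 60.4 ± 5.94 CPM in control (SD, n = 4 each). Its log2 fold change came to 0.16 (SE 0.18, adjusted p = 0.620, edgeR, or 0.314 with the block). For every 100 counts of Sgce there were 40.4, 47.0, 50.9 and 33.4 counts of Peg10 in PUS10KO libraries 1 to 4, against 10.2, 9.76, 17.1 and 12.6 in control libraries 1 to 4. The ratio was thus higher in each PUS10KO library than in any control library, and the difference between the fold changes of Peg10 and Sgce was not tested. Among the other tested neighbours of Peg10 within 1 Mb, Col1a2, a collagen chain gene, fell (log2 fold change -0.77, adjusted p = 0.0499, edgeR). The Col1a2 call was kept in 2 of 8 fits that left out 1 library (those without control 2 or PUS10KO 4). It was lost with another scaling (adjusted p = 0.0508, edgeR). The median log2 fold change of chromosome 6 was -0.18, with 26 of 571 tested genes rising and 63 falling.

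Ndn fell, while Peg12 of the same imprinted cluster rose. Ndn encodes necdin, a member of the MAGE family that restrains cell proliferation, and is expressed from the paternal copy. Ndn (ENSMUSG00000033585.5) spans chromosome 7, 62346569 to 62350262, plus strand. It had 4.74, 4.50, 5.91 and 5.95 CPM in PUS10KO libraries 1 to 4, against 25.3, 16.7, 18.7 and 21.1 CPM in control libraries 1 to 4. The PUS10KO values lay close together, and the highest of them was below the lowest control value. The means were 5.27 ± 0.77 CPM in PUS10KO and 20.4 ± 3.71 CPM in control (SD, n = 4 each), a log2 fold change of -1.95 (SE 0.19, adjusted p = 0.000350, edgeR). Among the members it had the lowest adjusted p, and the call was kept in each of 8 fits without 1 library (-2.04 to -1.83).

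The only tested neighbours of Ndn within 1 Mb were Mkrn3 and Peg12, both paternally expressed genes of the same cluster. Peg12 starts 118 kb from Ndn and had 44.2, 46.1, 28.2 and 27.1 CPM in PUS10KO libraries 1 to 4, against 12.0, 13.7, 9.53 and 8.43 CPM in control libraries 1 to 4. It rose with a log2 fold change of 1.74 (SE 0.24, adjusted p = 0.00211, edgeR), a call kept in each of 8 fits without 1 library. Mkrn3, a ubiquitin ligase gene 73.6 kb from Ndn that was named after its values were seen, averaged 2.13 ± 0.69 CPM in PUS10KO and 0.79 ± 0.41 CPM in control (SD, n = 4 each; log2 fold change 1.43, adjusted p = 0.0640, edgeR, or 0.00231 with the block). Snrpn, a splicing protein gene expressed from the paternal copy of the same cluster and also named after its values were seen, showed a log2 fold change of 0.28 (adjusted p = 0.508, edgeR). On chromosome 7 the median log2 fold change was 0.15, with 51 of 872 tested genes rising and 21 falling.

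**Figure D2:**
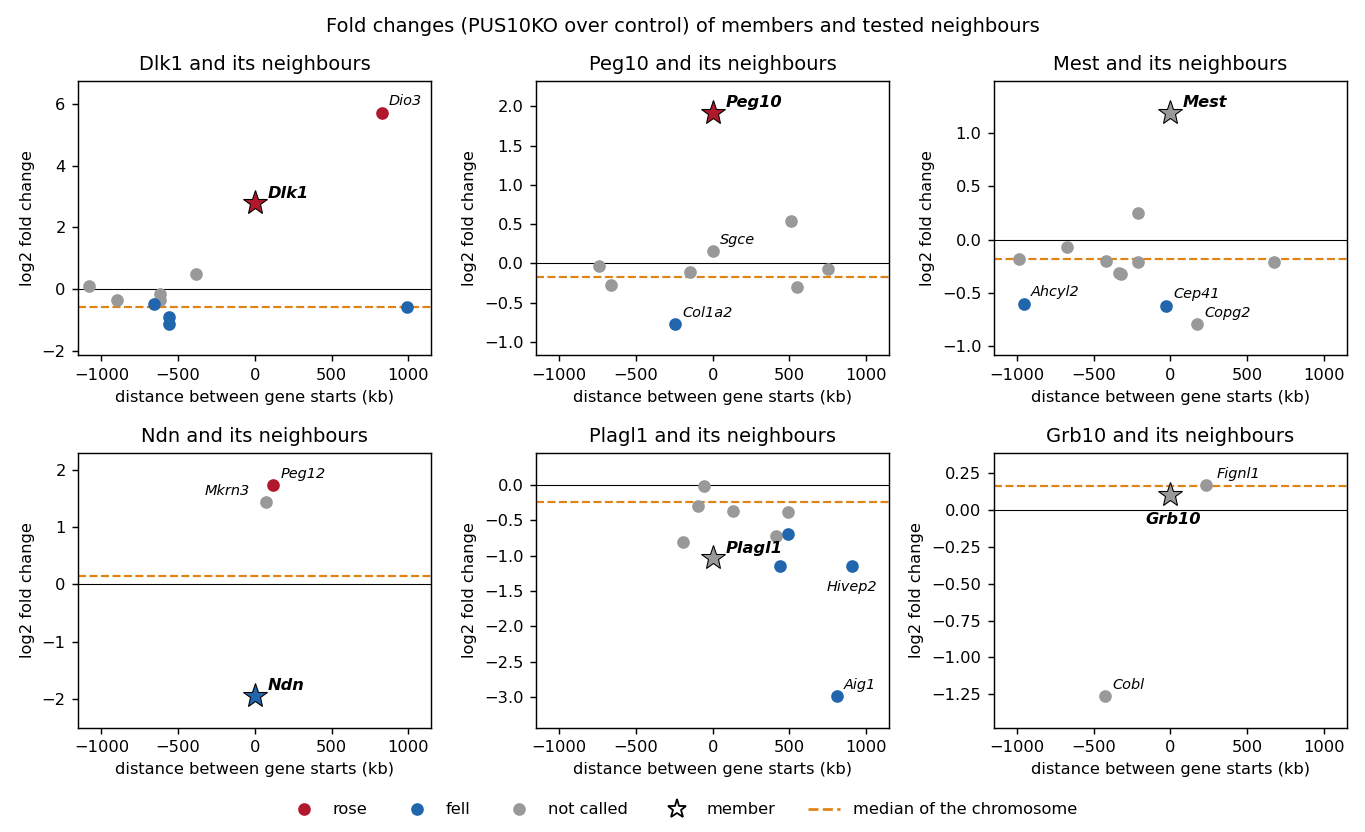
Log2 fold change of 6 imprinted genes (stars) and of tested genes within 1 Mb (circles) against the distance between gene starts in kb, positive downstream of the star; red rose, blue fell and grey was not called, and the dashed line is the median of the chromosome. Dlk1 at 2.79 and Dio3 at 5.73 lay above the other tested genes there, which ran from -1.13 to 0.50, Peg10 lay above Sgce at nearly the same place, and Ndn lay below Mkrn3 and Peg12.

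Mest, a paternally expressed gene of a hydrolase-fold protein linked to fat cell size and growth, varied more between libraries than any other member. Mest (ENSMUSG00000051855.15) spans chromosome 6, 30723547 to 30748465, plus strand. It had 17.9, 22.0, 73.3 and 114 CPM in PUS10KO libraries 1 to 4, against 9.10, 12.6, 21.5 and 56.0 CPM in control libraries 1 to 4. The groups overlapped, and within each genotype libraries 3 and 4 were above libraries 1 and 2. The highest library was 6.35 times the lowest in PUS10KO and 6.15 times in control, where the median of all tested genes was 1.50 and 1.58 times. The log2 fold change came to 1.19 (SE 0.72, adjusted p = 0.339, edgeR), and it ran from 0.61 to 1.99 with 1 library left out. Between libraries of the same number PUS10KO was higher each time, by 0.97, 0.79, 1.77 and 1.02 on the log2 scale, and with the block Mest rose (log2 fold change 1.15, adjusted p = 0.000761, edgeR). Copg2, a coatomer subunit gene that overlaps the end of Mest on the other strand and was named after its values were seen, had log2 differences of -0.76, -0.91, -0.78 and -0.74 between libraries of the same number (adjusted p = 0.0679, edgeR, or 0.000145 with the block). The sources used here do not give the strand setting of the counting, so reads of Mest and Copg2 in their overlap cannot be told apart. On chromosome 6 the median log2 fold change was -0.18, with 26 of 571 tested genes rising and 63 falling. Among the 11 tested neighbours of Mest, Cep41 and Ahcyl2 fell and none rose. Their log2 fold changes were -0.62 and -0.60 (adjusted p = 0.0223 and 0.0221, edgeR). The Cep41 call was kept in 3 of 8 fits that left out 1 library (those without control 1 or 3 or PUS10KO 4). The Ahcyl2 call was kept in 4 of these 8 fits (those without control 1, 2 or 4 or PUS10KO 1).

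**Figure D3:**
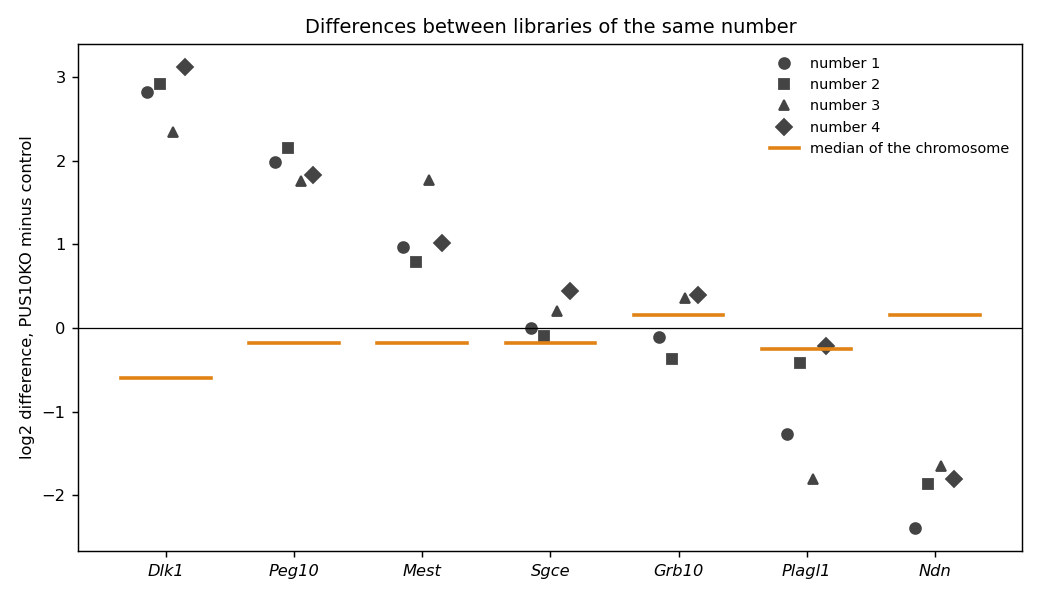
Log2 difference of PUS10KO minus control between libraries of the same number for the 7 imprinted genes (markers), with the median log2 fold change of each gene's chromosome (orange lines). The 4 differences were above 0 for Dlk1, Peg10 and Mest, below 0 for Ndn and Plagl1, and on both sides of 0 or at 0 for Sgce and Grb10.

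Plagl1 and Grb10 marked the ends of the range of levels and did not pass the test. Plagl1, a zinc finger transcription factor gene that stands in a network of co-expressed imprinted genes, lies on chromosome 10, 13060504 to 13131694, plus strand (ENSMUSG00000019817.18). It had 22, 21, 14 and 24 counts in PUS10KO libraries 1 to 4, against 63, 21, 45 and 32 counts in control libraries 1 to 4. Its means were 0.98 ± 0.33 CPM in PUS10KO and 2.02 ± 0.85 CPM in control (SD, n = 4 each), and the groups overlapped. The log2 fold change came to -1.04 (SE 0.40, adjusted p = 0.132, edgeR), and with the block Plagl1 fell (-1.01, adjusted p = 0.0375, edgeR). On chromosome 10 the median was -0.25, with 25 of 575 tested genes rising and 101 (17.6%) falling, and within 1 Mb of Plagl1 4 of 10 tested genes fell and none rose. Aig1 showed a log2 fold change of -2.98 and Hivep2 -1.15 (adjusted p = 0.000171 and 0.00489, edgeR).

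Grb10, an adaptor that inhibits signalling by the insulin and insulin-like growth factor receptors and is expressed from the maternal copy in most tissues, was the most abundant member. Grb10 (ENSMUSG00000020176.17) spans chromosome 11, 11930508 to 12038683, minus strand. It had 1232, 1131, 1619 and 1765 CPM in PUS10KO libraries 1 to 4, against 1326, 1457, 1260 and 1334 CPM in control libraries 1 to 4. PUS10KO libraries 3 and 4 were above all control libraries, and PUS10KO libraries 1 and 2 were below all of them. The log2 fold change came to 0.10 (SE 0.17, adjusted p = 0.767, edgeR, or 0.692 with the block). Its tested neighbours were Fignl1, with a log2 fold change of 0.17 (adjusted p = 0.624, edgeR), and Cobl, named after its values were seen, with -1.26 (adjusted p = 0.267, edgeR, or 0.00962 with the block). On chromosome 11, which also holds Pus10, the median log2 fold change was 0.16, with 69 of 966 tested genes rising and 30 falling.

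Per kilobase of annotated exon, the order of the members changed in the middle of the range. In PUS10KO the mean levels were 158 ± 33.4 CPM per kb for Grb10, 14.4 ± 11.6 for Mest, 13.6 ± 8.71 for Dlk1, 6.37 ± 1.52 for Sgce, 4.30 ± 1.08 for Peg10, 1.43 ± 0.21 for Ndn and 0.13 ± 0.042 for Plagl1 (SD, n = 4). In control they were 148 ± 9.05 CPM per kb for Grb10, 6.29 ± 5.43 for Mest, 5.69 ± 0.56 for Sgce, 5.53 ± 1.00 for Ndn, 1.97 ± 1.25 for Dlk1, 1.14 ± 0.40 for Peg10 and 0.26 ± 0.11 for Plagl1 (SD, n = 4). Grb10 exceeded 97.8% of tested genes in PUS10KO and 97.4% in control by this measure, and Plagl1 2.05% and 5.22%. Dlk1 exceeded 68.9% of tested genes in PUS10KO and 24.1% in control, and Ndn 19.2% and 45.1%. Some neighbours in the order had overlapping ranges over libraries. In PUS10KO Mest was above Dlk1 in 2 of 4 libraries and Dlk1 above Sgce in 3 of 4. Sgce was above Peg10 in 4 of 4 PUS10KO libraries, although their ranges overlapped. In control Mest was above Sgce in 1 of 4 libraries, Sgce above Ndn in 3 of 4 and Dlk1 above Peg10 in 3 of 4. The other neighbours in the order had ranges that did not overlap.

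Of 40 other imprinted genes listed, 19 were tested, of which 3 rose, 1 fell and 15 did not pass (with the block, 4 and 2). That is 21.1% called, against 13.0% of all genes, and with the block 6 of 19, against 39.0% of all genes. The median log2 fold change of the 19 was 0.12. Besides Dio3 and Peg12, Cdkn1c rose, a cyclin-dependent kinase inhibitor gene expressed from the maternal copy that restrains growth. Cdkn1c had 8.54, 4.61, 12.4 and 15.4 CPM in PUS10KO libraries 1 to 4, against 2.77, 1.37, 3.56 and 2.92 CPM in control libraries 1 to 4 (log2 fold change 1.94, SE 0.42, adjusted p = 0.0161, edgeR). Every PUS10KO value lay above every control value. Igf2r, the receptor that clears insulin-like growth factor 2 and is expressed from the maternal copy, had 117, 136, 210 and 192 CPM in PUS10KO libraries 1 to 4, against 293, 245, 425 and 484 CPM in control libraries 1 to 4. It fell with a log2 fold change of -1.14 (SE 0.27, adjusted p = 0.0238, edgeR), a call kept in 4 of 8 fits that left out 1 library, those without control 1 or 2 or PUS10KO 3 or 4, with adjusted p up to 0.0673. The genes that moved thus included paternally expressed genes in both directions and maternally expressed genes in both directions. In a list of 18 genes whose imprinting is reported mainly in placenta or in single tissues, 10 were tested and edgeR called 0, with 0 at an unadjusted p under 0.05, while DESeq2 called 0 rising and 0 falling, limma voom 0 and 0, and edgeR with the block 1 and 3. Cd81 and Nap1l4, the most abundant of them, showed log2 fold changes of -0.10 and 0.13 (adjusted p = 0.745 and 0.694, edgeR).

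Among 19 tested factors that set or keep imprints, 1 rose, 2 fell and 16 did not pass (with the block, 3 and 3). The share called, 15.8%, was close to the 13.0% of all genes, and with the block 6 of 19 were called, against 39.0% of all genes. Setdb1, a histone H3 methyltransferase, had 77.6 ± 4.27 CPM in PUS10KO and 58.4 ± 3.17 CPM in control. Yy1, a zinc finger factor, had 59.8 ± 5.78 CPM in PUS10KO and 83.5 ± 9.79 CPM in control, and Dnmt3a, a DNA methyltransferase, had 16.4 ± 1.90 and 26.4 ± 6.68 CPM in the same order (SD, n = 4 each). The adjusted p values were 0.0303, 0.0374 and 0.0475 (edgeR), and each call was kept in at most 2 of 8 fits that left out 1 library, Setdb1 and Dnmt3a in the fit without control 4 and Yy1 in those without control 4 or PUS10KO 2. The Dnmt3a call was also lost with limma voom (adjusted p = 0.0562). Both genes that fell lie on chromosome 12, Yy1 660 kb upstream of Dlk1 between starts. Zfp57, Trim28 and Dnmt1, which bind and maintain methylated imprints and were named after their values were seen, showed log2 fold changes of -0.32, 0.15 and 0.18 (adjusted p = 0.232, 0.601 and 0.659, edgeR).

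Peg10 belongs to a group of genes that arose from retrotransposon gag sequences. Of 9 tested genes in the list, which does not hold Peg10, 4 rose, none fell and 5 did not pass (with the block, 4 and 1), with a median log2 fold change of 0.55. Of all genes 5.90% rose and 7.11% fell, and with the block 19.1% and 19.9%. Rtl6 had 7.99, 7.72, 14.2 and 13.5 CPM in PUS10KO libraries 1 to 4, against 0.78, 0.82, 1.49 and 1.82 CPM in control libraries 1 to 4 (log2 fold change 3.13, SE 0.37, adjusted p = 0.000995, edgeR). Rtl5, on the X chromosome, had 11.6, 8.79, 9.29 and 8.44 CPM in PUS10KO libraries 1 to 4, against 2.63, 2.35, 2.78 and 3.16 CPM in control libraries 1 to 4 (log2 fold change 1.80, SE 0.20, adjusted p = 0.000664, edgeR). In both genes the groups were apart, and both calls were kept in each of 8 fits without 1 library. Pnma2, a gene of the paraneoplastic Ma antigen family, averaged 9.56 ± 4.50 CPM in PUS10KO and 0.83 ± 0.26 CPM in control (SD, n = 4 each; log2 fold change 3.52, adjusted p = 0.00115, edgeR). Rtl8c showed a log2 fold change of 1.16 (adjusted p = 0.0278, edgeR), a call kept only in the fit without PUS10KO 2 and lost with limma voom (adjusted p = 0.0567). Rtl8c belongs to a set of close copies with Rtl8a and Rtl8b, so its counts are uncertain. These copies lie on the X chromosome, as Rtl5 does. On X the median log2 fold change was 0.20, and 36 of 395 tested genes (9.11%) rose while 19 fell. Rtl3, also on X and named after its values were seen, had the lowest fold change of the list (log2 fold change -1.57, adjusted p = 0.258, edgeR, or 0.00217 with the block).

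**Figure D4:**
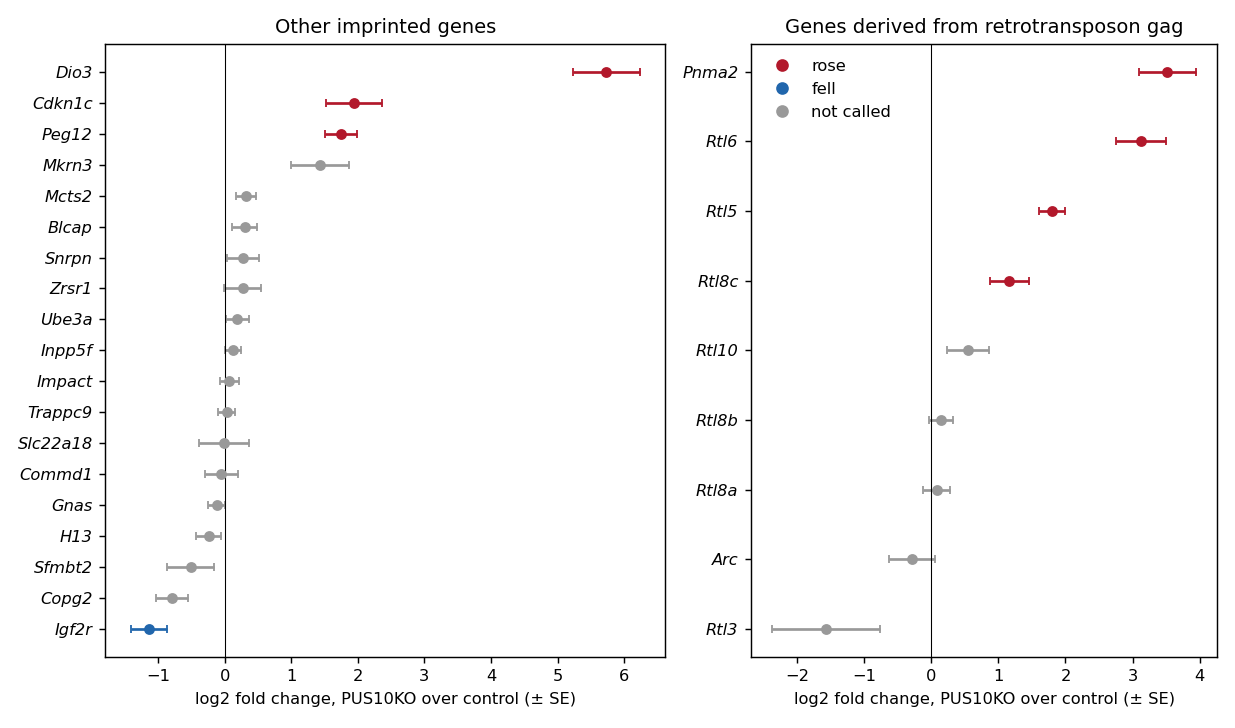
Log2 fold change of PUS10KO over control with its standard error for the 19 other imprinted genes tested (left) and the 9 genes derived from retrotransposon gag sequences (right), sorted by value; red rose, blue fell and grey was not called by edgeR. Dio3 at 5.73 lay above the other imprinted genes, and Pnma2, Rtl6, Rtl5 and Rtl8c rose in the right panel.

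Lists around the members' known functions are read against the 13.0% of all genes called, or 39.0% with the block. These lists too were chosen with earlier results known, so the shares are a description. The share called was 38.9% in the Notch list, 16.7% in the adipocyte list, 9.09% in the insulin list, 22.2% among partners and targets, 25.0% in the sarcoglycan list and 14.3% in each of the last 2 lists. Around Dlk1, 2 of 18 tested Notch pathway genes rose, 5 fell and 11 did not pass (with the block, 5 and 6; list median -0.01 on the log2 scale). Hey2, a transcriptional target of Notch, had 0.18 ± 0.14 CPM in PUS10KO and 12.0 ± 4.64 CPM in control, and its relative Hey1 had 0.59 ± 0.16 and 2.98 ± 1.63 CPM in the same order (SD, n = 4 each; log2 fold changes -5.97 and -2.32, adjusted p = 0.000417 and 0.0120, edgeR). Numb, a Notch inhibitor on chromosome 12, showed a log2 fold change of -0.61 and Rbpj, the DNA-binding partner of Notch, 0.85 (adjusted p = 0.00845 and 0.0112, edgeR). Of 12 tested genes of adipocyte differentiation 1 rose, 1 fell and 10 did not pass (with the block, 3 and 3; list median 0.26 on the log2 scale). Ebf2, a factor of preadipocytes, showed a log2 fold change of 2.88 and Lpl, the lipase that releases fatty acids from lipoproteins, -1.15 (adjusted p = 0.00333 and 0.0102, edgeR).

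Around Grb10, 1 of 22 tested genes of insulin receptor signalling rose, 1 fell and 20 did not pass (with the block, 4 and 1; list median 0.11 on the log2 scale). Igf1, a growth factor, had 33.6 ± 15.1 CPM in PUS10KO and 10.3 ± 3.60 CPM in control, and the kinase gene Akt1 had 217 ± 34.8 CPM in PUS10KO and 400.0 ± 35.9 CPM in control (SD, n = 4 each; adjusted p = 0.0128 and 0.00459, edgeR). Akt1 also lies on chromosome 12. Among 9 tested partners and targets described for Ndn, Peg3 or Plagl1, Cdkn1a, a cyclin-dependent kinase inhibitor gene, rose (log2 fold change 1.19, adjusted p = 0.00464), Bmi1, a Polycomb gene, fell (-0.51, adjusted p = 0.0236, edgeR), and 7 did not pass (with the block, 4 rising and 1 falling; list median 0.23 on the log2 scale). The Bmi1 call was kept in 3 of 8 fits that left out 1 library (those without control 1 or 2 or PUS10KO 2).

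Of 8 tested sarcoglycan and dystrophin complex genes, the partners of Sgce, none rose, 2 fell and 6 did not pass, while with the block 6 fell and none rose, where 7.11% of all genes fell without the block and 19.9% with it (list median -0.72 on the log2 scale). Dmd, the dystrophin gene, which is X-linked, averaged 16.0 ± 7.89 CPM in PUS10KO and 76.4 ± 48.9 CPM in control (SD, n = 4 each; adjusted p = 0.0203, edgeR, lost without PUS10KO 3 at 0.0618). Dtna, the dystrobrevin gene, showed a log2 fold change of -1.26 (adjusted p = 0.0206, edgeR), a call lost without PUS10KO 2, 3 or 4. In the PLAG and MAGE families, the relatives of Plagl1 and Ndn, 1 of 7 tested genes fell and 6 did not pass (with the block, 2 rising and 1 falling; list median 0.13 on the log2 scale). The gene that fell was the zinc finger gene Plag1, with 0.53 ± 0.14 CPM in PUS10KO and 7.84 ± 2.80 CPM in control (SD, n = 4 each; log2 fold change -3.86, adjusted p = 0.000378, edgeR). Of 7 tested hydrolase relatives of Mest and Wnt coreceptors, Ephx2, an epoxide hydrolase gene, rose (log2 fold change 1.02, adjusted p = 0.00141, edgeR) and 6 did not pass (with the block, 4 rising and 2 falling; list median 0.36 on the log2 scale).

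The genes most like each member were those with the highest Pearson r of log2 CPM over the 8 libraries, which share 2 genotypes and the library numbers, so r is a description. For Dlk1 these were Cdkn1a and Zfp512b (r = 0.985 each), and for Peg10 Cdc42bpg (r = 0.986) and the lactate dehydrogenase gene Ldhb (r = 0.985). For Ndn they were Enpp4 (r = 0.999) and Ccdc68 (r = 0.996). For Mest they were Tstd3 (r = 0.993) and the cytokine receptor gene Lifr (r = 0.986), for Sgce Gtf2ird2 (r = 0.979) and the cytokine receptor gene Il6st (r = 0.968). For Grb10 they were Gas6 (r = 0.987), a ligand of receptor tyrosine kinases, and Tmem106c (r = 0.925), and for Plagl1 Ltbp3 (r = 0.960). Among the members themselves Sgce and Mest had the highest r (0.881), and Peg10 and Ndn the lowest (-0.91). With the genotype means removed, Peg10 and Ndn had r = 0.068, Dlk1 and Mest r = -0.821 and Sgce and Mest r = 0.883, over the same 8 libraries.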

How the data were processed

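RNA of mouse embryonic fibroblasts was measured in 4 PUS10KO and 4 control libraries, grouped by their titles. Per the labels' protocols, the total RNA libraries were stranded and read from both ends. The deposited counts are whole reads for each gene and were not normalized. STAR 2.7.8a, the mm10 build and DESeq2 are named in the submitters' processing notes. The sources used here do not give the read counter, its strand setting, the gene models or any filter on rows. The authors also deposited a normalized table, used as an alternative, whose values are by their range on a log2 scale (5.13 to 18.1) that no source used here states. In it PUS10KO plus control of one number gave the same sum for numbers 1 to 4 in all 12211 genes (tolerance 1e-06). Averaged over PUS10KO and control, its values thus held no difference between library numbers. Its fit, which also used the block, is therefore no separate check on the fit of the counts with the block.

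In R 4.3.3 the counts were fitted with edgeR 4.0.16 (filterByExpr, TMM, robust quasi-likelihood test, genotype as the only term), and p-values were adjusted over 11909 genes by Benjamini-Hochberg, with 0.05 as the threshold. The SE is the absolute log2 fold change divided by the square root of F. Alternatives were DESeq2's scaling in edgeR, no filter, DESeq2 1.42.0, limma 3.58.1 (voom, and the normalized table with the block), the replicate block, and leaving out each library. Same-number differences add 0.1 CPM before the logarithm. The test was also run on simulated counts that held no effect of library number, so that run does not cover the pairing described below. GENCODE M21, on GRCm38 like mm10, gave positions and exon lengths, matched for 12046 symbols directly and 150 through synonyms. Same-numbered libraries deviated together from their genotype means (r = 0.681, 0.722, 0.633 and 0.687 across genes), and were taken as paired in the fit with the block, not in the main test. PUS10KO 3 with control 4 (r = 0.582) and PUS10KO 4 with control 3 (r = 0.503) came near these values, so numbers 3 and 4 are poorly told apart, and the labels do not say what a number shares. Libraries of 1 genotype differed by more than sampling noise in every pair, with a chi-square per degree of freedom of at least 18.2.

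The members and lists were chosen with earlier results of these data known. Named were all members, up to 6 called genes by lowest p of the other imprinted genes and up to 4 of every other list (2 by level where none was called), up to 2 called neighbours within 1 Mb of a member (or the nearest), and the 2 genes of highest r with each member among genes of mean log2 CPM of at least 1, without predicted genes; 1 gene that this rule names is not reported here. In the Notch list, Jag1, Adam17 and Notch3 passed the test besides the 4 named.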

Additional observations from a re-analysis of the deposited data

Results flagged for a closer look

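None of the 7 imprinted genes had a library apart from the other 3 of its genotype by Dixon's test. Over 54 named genes, the members included, 3 of 108 groups of 4 libraries did, where chance gives about 1 in 20. Fignl1, a neighbour of Grb10, had 94.2 CPM in control 2, against 55.7 to 61.3 CPM in the other control libraries. Hivep2, a neighbour of Plagl1, had 25.1 CPM in control 1, against 40.1 to 40.9 CPM in the other control libraries. Rbpj, of the Notch list, had 87.8 CPM in PUS10KO 2, against 65.4 to 67.8 CPM in the other PUS10KO libraries. Among the members, Dlk1 had 150 CPM in PUS10KO 1, against 41.5 to 61.1 CPM in the other PUS10KO libraries. That gap fell short of the critical value of the test. Without PUS10KO 1 the log2 fold change of Dlk1 was 2.24, in place of 2.79.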

How the results depend on the processing

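Dlk1, Peg10 and Ndn kept their direction and their call under all alternatives. Mest, Plagl1, Sgce and Grb10 stayed uncalled with the other scaling, no filter, DESeq2, limma voom and every library left out. With the replicate block 2 members fell in place of 1 and 3 rose in place of 2. The deposited normalized values gave the same counts, but they were fitted with the block too. In fits without 1 library, the value of Grb10 on the log2 scale ran from -0.02 (without PUS10KO 4) to 0.19, and that of Tmem106c from -0.04 (without PUS10KO 4) to 0.07, with -0.0036 without PUS10KO 3; neither was called. Over all genes 703 rose and 847 fell; with the replicate block, the pairing seen in the counts, 2273 rose and 2368 fell, which took in each of the 1550 genes called without it. The normalized values, fitted with the same block, gave 2318 and 2329. By DESeq2, without the block, 1083 rose, and the cause of that difference was not tested. Leaving out 1 library gave 492 to 638 genes that rose and 520 to 728 that fell, with 560 falling without PUS10KO 2 and 520 without PUS10KO 3. Of the 37 other named genes called besides the members, Pus10 included, 25 kept the call in all 8 such fits. Plagl1 had 14 to 63 counts a library, and the part of depth in its missing call was not tested.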
